A study of Rattus norvegicus with 22 samples.

Results

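Lungs of rats killed 18 h after Mild PE (18-h Mild PE) were set against lungs of rats killed 18 h after injection of the vehicle alone (18-h Vehicle). The comparison used 7 of the 22 rats of the study, the 4 labelled as embolized with the lower dose and the 3 labelled as vehicle controls at that time, and covered every probeset of the array. Pulmonary embolism was modelled with polystyrene microspheres of 25 micron, which were injected into the jugular vein of male Sprague–Dawley rats. The 18-h Mild PE rats received 1,300,000 microspheres per 100 g of body weight in 0.10 ml of 0.01% Tween-20. The 18-h Vehicle rats received only that solution, at 0.15 ml per 100 g. This is the volume of the higher dose, so the injected volume differed between the groups together with the microspheres. All of the rats weighed about 350 g by the labels, although the methods give a slightly higher weight, and the lungs were lavaged with 8 ml of saline before excision. RNA came from crushed whole right lung tissue and each rat was measured on 1 Affymetrix rat genome array. Rats killed 2 h after injection and rats given 2,000,000 microspheres per 100 g (Severe PE) served here only to show where the 18-h Mild PE response differed.

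Microspheres of this size lodge in small pulmonary arteries, where they narrow the vascular bed and raise the pressure against which the right ventricle pumps. Chemokines and cytokines, which vascular cells and leukocytes of an injured lung can release, are known to draw monocytes and neutrophils. Proteases, protease inhibitors and matrix proteins, made by macrophages, fibroblasts and endothelium among others, are known for their part in tissue remodelling.

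Values are log2 array signals after normalisation. Signals under 16 were raised to 16, so that 4 is the lowest possible level and is called the floor. Probesets were called changed where limma gave an adjusted p (Benjamini-Hochberg) under 0.05 and the group means differed 1.5-fold or more, and SE is the standard error of a log2 difference. In gene lists each gene was read by its brightest probeset, so a count of members that passed leaves out other probesets of a gene. Read in this way, 0.760% of all 14217 genes rose and 0.675% fell, the shares beside which such counts stand. The tissue carried the markers of lung in all 7 rats: Sftpc, a surfactant protein of alveolar type 2 cells, lay between 14.56 and 14.84, Ager of alveolar type 1 cells between 13.59 and 14.12, and Scgb1a1 of airway club cells between 14.71 and 14.97. Myh6, a myosin of heart muscle that pulmonary veins of rodents also make, lay between 11.50 and 12.63. The share of probesets under the floor was 14.7% to 17.3% per array. For the Gapdh control transcript the 3′ minus 5′ log2 signal was 0.491 in 18-h Mild PE rat 4 and 0.638 in 18-h Vehicle rat 1, against 0.176 to 0.208 in the other 5 rats.

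Of 31042 probesets, 321 (1.03%) changed, 157 higher (0.506%) and 164 lower (0.528%) after Mild PE. They covered 243 named genes, 122 higher and 121 lower (204 of 14217, or 1.43%, where each gene is read by its brightest probeset), and 70 changed probesets had no single gene symbol. The largest rise among those 70 was 4.40 (adjusted p = 0.00567), with 8.19 to 8.84 in the 18-h Mild PE rats, against 4.0 to 4.29 in 18-h Vehicle. Among the 321, the change was at least 2-fold in 177 probesets and at least 4-fold in 34. At an unadjusted p under 0.05 there were 5793 probesets, 2712 higher and 3081 lower, where chance alone would give about 1552. The first principal component of the 7 arrays, with 28.96% of the variance, held the 4 18-h Mild PE rats on one side and the 3 18-h Vehicle rats on the other. The count of changed probesets depended on single arrays. It was 491 without 18-h Mild PE rat 3, but 4, 14 and 83 without 18-h Mild PE rats 2, 1 and 4, and 117, 78 and 99 without 18-h Vehicle rats 1, 2 and 3. It was 3 once 18-h Mild PE rat 4 and 18-h Vehicle rat 1, whose 5′ signal was low, were both left out. Of the 74 changed genes named by rule, none turned its direction under any alternative. Ndp and Ephx4, however, had a difference of 0 when the floor was set at 64. Of the 74, 3 (Cyp1a1, Timp1 and Chi3l1) passed with each of the 7 arrays left out in turn. With those 2 arrays out, none of the 74 passed.

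Cyp1a1, a cytochrome P450 that oxidises aromatic hydrocarbons and is made by lung endothelium, showed the lowest adjusted p of the array and its largest fall. It was at the floor of 4.0 in all 4 18-h Mild PE rats, against 10.01, 10.03 and 10.68 in 18-h Vehicle rats 1 to 3. The level was thus at least 75.5-fold lower after Mild PE (adjusted p = 0.00142). At 2 h its levels were 4.0, 7.06, 4.93 and 7.71 in the 4 Mild PE rats, against 9.82, 9.63 and 9.06 in the 3 Vehicle rats. The groups did not overlap at either time. The spread among the 18-h Mild PE rats was not measured, since all 4 lay at the floor. The 18-h Severe PE rats had 4.0, 5.36, 4.0 and 7.50.

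Of the genes with a symbol, Ccl2 had the largest rise, and 4 CC chemokines were among the 15 largest. Ccl2, which draws monocytes, had 13.06, 12.55, 11.41 and 12.52 in 18-h Mild PE rats 1 to 4, against 7.75, 7.36 and 7.77 in 18-h Vehicle rats 1 to 3. The difference was 4.76 (SE 0.40, adjusted p = 0.0180), or 27.1-fold, and the lowest 18-h Mild PE rat lay far above the highest 18-h Vehicle rat. Ccl7, a further chemokine for monocytes, had 10.70, 10.44, 8.72 and 10.00 in the 18-h Mild PE rats, against 5.46, 6.81 and 5.93 in the 18-h Vehicle rats (3.90, SE 0.57, adjusted p = 0.0484). Ccl9 rose by 3.43 (SE 0.45, adjusted p = 0.0414). Ccl24, which attracts eosinophils, rose by 2.81 (SE 0.38, adjusted p = 0.0433). These were the 4 of 16 measured CC chemokines that rose, and none fell, where 0.760% of 14217 genes rose and 0.675% fell. The median difference of the 16 was 0.92, against -0.0037 for all genes. The groups did not overlap for 6 of the 16 in the upward direction, against 10.2% of all genes. Each of these genes was lowest in 18-h Mild PE rat 3 among the 4 rats.

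Some inflammatory cytokines rose as well. Il6, which drives the acute phase response, had 8.66, 8.26, 6.73 and 7.77 in the 18-h Mild PE rats, against 4.51, 4.16 and 4.43 in the 18-h Vehicle rats, where it was close to the floor. The difference was 3.49 (SE 0.47, adjusted p = 0.0422). Tnf, an early macrophage cytokine, had 9.47, 9.67, 8.75 and 9.09 after Mild PE, against 7.48, 7.41 and 7.60 in 18-h Vehicle (1.75, SE 0.23, adjusted p = 0.0417). The other Tnf probeset differed by 1.03 and did not pass. Cxcl2, a chemokine for neutrophils, rose by 1.70 (SE 0.22, adjusted p = 0.0397). Il1b differed by 1.10 and did not pass (adjusted p = 0.0567), and neither did Il1rn, the natural blocker of the interleukin 1 receptor (2.51, adjusted p = 0.0615). In the list of TNF, interleukin 1 and interleukin 6 family cytokines 2 of 25 rose and none fell (median 0.24), and in the list of CXC and other chemokines 1 of 13 rose and none fell (median 0.46). Of 14 chemokine receptors none passed (median 0.33). Among all 14217 genes 0.760% rose and 0.675% fell.

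Among receptors and regulators of this signalling few members passed. Tnfrsf12a, the receptor of the TNF family ligand TWEAK, had 10.06, 9.88, 9.71 and 9.96 after Mild PE, against 8.15, 7.81 and 8.08 in 18-h Vehicle (1.89, SE 0.12, adjusted p = 0.0144). Tnfaip3, the enzyme A20 that shuts off NF-kB, had 10.91, 10.94, 10.78 and 10.88, against 10.18, 10.18 and 10.13 in 18-h Vehicle. Its rise of 0.71 (SE 0.05, adjusted p = 0.0180) was small, yet every 18-h Mild PE rat lay well above every 18-h Vehicle rat. Of 23 measured NF-kB and feedback regulators Tnfaip3 alone passed, but 19 had a positive difference (82.6%, against 47.4% of all genes), 11 did not overlap in that direction (47.8%, against 10.2%) and the median was 0.47. Bcl3, an NF-kB cofactor, differed by 1.78 and did not pass (adjusted p = 0.0688). Of 21 cytokine receptors 1 rose (median 0.35), and of 14 Toll-like and NOD-like sensors none passed (median 0.34).

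The proximal promoters of the changed genes were read from RefSeq (build GRCr8), where 106 of the 122 genes that rose and 94 of the 121 that fell had an entry. A form of the NF-kB binding site, GGG, any 2 bases and TTTCC, was searched on both strands in the 150 bases before each start. It was present in 0.795% of all 33469 promoter windows, in 6 of the 114 windows of genes that rose (5.26%) and in none of the 99 windows of genes that fell. The 6 were those of C3ar1, Ccl9, Cxcl2, Dusp5, Il6 and Tnfaip3. The motif and the window were chosen after the changed genes were known, and a match is a description of letters and not a sign of binding. The 4 windows of inflammatory genes are shown to let the matches be compared, each 5′ to 3′ on the strand of its gene, ending at the base before the start, with the matches in capitals.
Il6 (chr4:5894576-5894725, minus strand): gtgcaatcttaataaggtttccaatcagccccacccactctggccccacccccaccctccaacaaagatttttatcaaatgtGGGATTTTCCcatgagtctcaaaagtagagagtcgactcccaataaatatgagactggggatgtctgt
Cxcl2 (chr14:17467256-17467405, minus strand): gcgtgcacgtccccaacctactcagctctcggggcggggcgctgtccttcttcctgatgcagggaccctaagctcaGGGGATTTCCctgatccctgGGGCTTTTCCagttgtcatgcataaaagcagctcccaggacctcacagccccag
Tnfaip3 (chr1:15543980-15544129, minus strand): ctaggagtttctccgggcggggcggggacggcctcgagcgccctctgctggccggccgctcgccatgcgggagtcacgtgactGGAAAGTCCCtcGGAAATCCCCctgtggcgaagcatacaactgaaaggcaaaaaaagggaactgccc
Ccl9 (chr10:68868878-68869027, minus strand): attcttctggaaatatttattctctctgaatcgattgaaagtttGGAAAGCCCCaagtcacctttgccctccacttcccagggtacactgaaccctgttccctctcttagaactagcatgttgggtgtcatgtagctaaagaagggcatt
Il6 held 1 match, which began 68 bases before the start on the strand of the gene. Cxcl2 held 2, which began 74 and 54 bases before the start. In Tnfaip3 both matches, at 67 and 55 bases, and in Ccl9 the match at 106 bases read on the opposite strand.

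Single members of the endothelial adhesion and clotting lists passed. Sele, the E-selectin on which leukocytes roll along activated endothelium, had 10.34, 9.22, 7.67 and 8.59 in the 18-h Mild PE rats, against 4.0, 4.95 and 4.59 in the 18-h Vehicle rats. The difference was 4.44 (SE 0.65, adjusted p = 0.0484), with a wide range among the 18-h Mild PE rats and no overlap with 18-h Vehicle. Selp and Vcam1, the other adhesion molecules with the smallest p, differed by 1.96 and 1.24 and did not pass (adjusted p = 0.0877 and 0.0840). Of 10 endothelial adhesion molecules Sele alone passed, and the median was -0.02. Upward 3 of the 10 did not overlap (30%, against 10.2% of all genes), and downward 1 (10%, against 12.1%). Tfpi2, a secreted inhibitor of serine proteases, had 9.07, 9.27, 9.01 and 10.31 after Mild PE, against 6.09, 5.70 and 6.0 in 18-h Vehicle (3.48, SE 0.35, adjusted p = 0.0282). Plaur, the urokinase receptor, rose by 1.49 (SE 0.22, adjusted p = 0.0485). Plg, the precursor of plasmin, fell by 1.15 (SE 0.17, adjusted p = 0.0485). In all, 2 of 29 coagulation and fibrinolysis genes rose and 1 fell (median 0.10), against 0.760% and 0.675% of all genes. Of the 29, 8 did not overlap upward (27.6%, against 10.2% of all genes) and 3 downward (10.3%, against 12.1%).

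**Figure D1:**
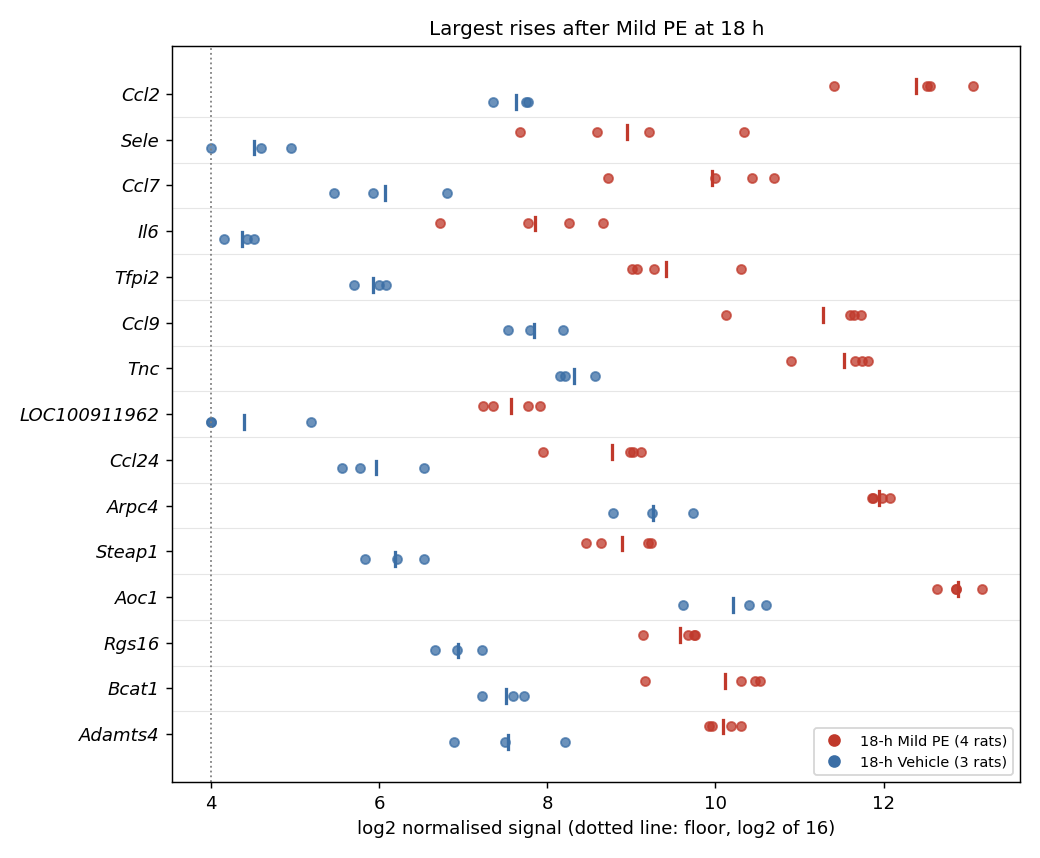
The 15 genes with the largest rises among changed probesets with 1 gene symbol, 1 row per gene. The x axis is the log2 normalised signal. Red points for the 4 18-h Mild PE rats lie above blue points for the 3 18-h Vehicle rats. A short line marks each mean. In every row all red points lie to the right of all blue points, and the gap is widest for Ccl2 (means 12.38 and 7.63).

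Among proteases, their inhibitors and matricellular proteins 6 members rose and 1 fell. Timp1, an inhibitor of matrix metalloproteinases, had 13.68, 13.80, 13.65 and 13.83 in the 18-h Mild PE rats, against 11.07, 11.38 and 11.22 in the 18-h Vehicle rats. The difference of 2.52 (SE 0.09, adjusted p = 0.00228) was large against the narrow range within each group. Tnc, the glycoprotein tenascin C of injured tissue, had 11.66, 11.81, 10.90 and 11.74 after Mild PE, against 8.21, 8.15 and 8.57 in 18-h Vehicle (3.22, SE 0.26, adjusted p = 0.0180). Adamts4 and Adamts1, proteases that cut proteoglycans, rose by 2.56 (SE 0.31, adjusted p = 0.0372) and 1.38 (SE 0.18, adjusted p = 0.0422). Vcan, the proteoglycan versican that these enzymes cut, rose by 2.13 (SE 0.32, adjusted p = 0.0498), and 2 of its 5 probesets passed. Fn1, fibronectin, rose by 0.66 (SE 0.08, adjusted p = 0.0374). Of 31 metalloproteinases and inhibitors 3 rose and none fell (median 0.05), and of 23 matricellular proteins 3 rose and 1 fell (median 0.09). Of all 14217 genes 0.760% rose and 0.675% fell. The matricellular gene that fell was Bgn, the small proteoglycan biglycan, with 11.03, 11.04, 11.39 and 11.19 after Mild PE, against 11.97, 12.12 and 12.10 in 18-h Vehicle (-0.90, SE 0.10, adjusted p = 0.0335). Of the 23 matricellular proteins 7 did not overlap downward (30.4%, against 12.1% of all genes). Upward 4 did not overlap (17.4%, against 10.2%).

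Structural matrix genes had mostly negative differences, and 1 passed. Among 40 collagens, laminins and elastic fibre genes the median was -0.30, 8 differences were positive, 14 did not overlap in the downward direction (35%, against 12.1% of all genes) and none did upward. Col13a1, a membrane collagen, was the member that passed, with 10.21, 9.80, 10.21 and 9.77 after Mild PE, against 11.32, 11.20 and 11.25 in 18-h Vehicle (-1.26, SE 0.14, adjusted p = 0.0333). Col6a3 and Lamb3 had adjusted p of 0.0333 and 0.0372 but differed by -0.48 and -0.54, which is under 1.5-fold. Dpt, dermatopontin of fibroblasts, fell by 1.27 (SE 0.14, adjusted p = 0.0333). Of 24 fibroblast markers 1 rose (Fn1) and 1 fell (Dpt), with a median of -0.43, and their summed linear signal was 95336 to 111970 in the 18-h Mild PE rats, against 127880 to 139870 in the 18-h Vehicle rats. In whole lung RNA fewer cells of a type and less RNA per cell cannot be told apart.

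Among acute phase, metal and antioxidant genes 5 rose and 1 fell. Chi3l1, a chitinase-like protein of macrophages, had 13.74, 13.75, 13.71 and 13.64 after Mild PE, against 12.10, 12.20 and 12.03 in 18-h Vehicle (1.61, SE 0.06, adjusted p = 0.00228). Saa3, a serum amyloid A protein, rose by 2.23 (SE 0.29, adjusted p = 0.0417). Of 21 acute phase genes 2 rose and none fell (median 0.47), where 0.760% of all genes rose and 0.675% fell. Upward 7 of the 21 did not overlap (33.3%, against 10.2% of all genes), and downward none did. Steap1 and Steap2, members of a family of membrane metalloreductases, rose by 2.69 (SE 0.27, adjusted p = 0.0282) and 1.10 (SE 0.15, adjusted p = 0.0448). They were the 2 of 16 metal genes that rose (median 0.56, none fell). Upward 8 of the 16 did not overlap (50%), and downward none did. Mt2A, a metallothionein, differed by 2.68 and did not pass (adjusted p = 0.0791). Its range was 11.23 to 13.18 after Mild PE, against 9.09 to 9.91 in 18-h Vehicle. The superoxide dismutases moved in opposite directions. Sod2, the mitochondrial enzyme, had 12.69, 12.69, 12.04 and 12.52 after Mild PE, against 10.79, 10.25 and 10.62 in 18-h Vehicle (1.93, SE 0.21, adjusted p = 0.0331). Sod3, the extracellular enzyme, had 10.77, 10.57, 10.85 and 10.30, against 11.75, 11.71 and 11.70 in 18-h Vehicle (-1.10, SE 0.14, adjusted p = 0.0391). No other of the 25 antioxidant genes passed.

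Genes that build ribosomes and translate RNA had almost without exception positive differences, most of them small. Of 36 ribosome biogenesis factors 35 had a positive difference, the median was 0.66, and 25 (69.4%) did not overlap upward, against 10.2% of all genes. The 4 that passed on their brightest probeset were Nhp2, a protein of the RNA-modifying H/ACA particles, Rrs1, Wdr12 and Gnl3. Utp18, also a ribosome biogenesis factor, had a changed probeset (0.98) that is not counted here. Nhp2 had 12.07, 12.10, 11.75 and 12.21 after Mild PE, against 11.08, 11.14 and 11.10 in 18-h Vehicle (0.92, SE 0.11, adjusted p = 0.0378). Rrs1, Wdr12 and Gnl3 rose by 0.92, 0.77 and 0.64 (adjusted p = 0.0479, 0.0472 and 0.0417). All 23 translation initiation factors had a positive difference, with a median of 0.34, and Eif1a passed (0.63, SE 0.08, adjusted p = 0.0372). The aminoacyl-tRNA synthetases, which charge tRNA with amino acids, had a median of 0.53 with 20 of 21 positive, and none passed. The smallest adjusted p among them was 0.0544, for Tars1 (1.32). The proteasome subunits had a median of 0.29 with 29 of 30 positive, and none passed on its brightest probeset. Psmd14, a proteasome subunit, had a changed probeset (0.80) that is not counted here. The respiratory chain genes, 43 in number, had a median of 0.06, with 2 (4.65%) non-overlapping in each direction, below the 10.2% upward and 12.1% downward of all genes.

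Amino acid supply and protein folding genes followed with single calls. Slc7a5, a carrier of large neutral amino acids, had 8.34, 8.72, 8.17 and 8.57 after Mild PE, against 6.69, 7.04 and 7.23 in 18-h Vehicle (1.47, SE 0.19, adjusted p = 0.0391). Shmt2, which feeds serine into mitochondrial one-carbon metabolism, rose by 0.84 (SE 0.11, adjusted p = 0.0420). Atf4, the transcription factor upstream of many such genes, differed by 0.44 with an adjusted p of 0.0422, under the 1.5-fold limit. Amd1, an enzyme of polyamine synthesis, rose by 0.79 (SE 0.11, adjusted p = 0.0437). Sdf2l1, a factor of the endoplasmic reticulum, had 12.33, 12.55, 12.55 and 12.91, against 11.52, 11.38 and 11.29 in 18-h Vehicle (1.19, SE 0.14, adjusted p = 0.0372), and was the 1 of 28 folding genes that passed (median 0.37). Bcat1, which starts the breakdown of branched-chain amino acids, rose by 2.61 (SE 0.37, adjusted p = 0.0476), while its other probeset differed by 1.33 and did not pass. Aoc1, the diamine oxidase that degrades histamine and putrescine, had 12.86, 12.86, 12.64 and 13.17 after Mild PE, against 9.61, 10.40 and 10.60 in 18-h Vehicle (2.68, SE 0.27, adjusted p = 0.0282).

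**Figure D2:**
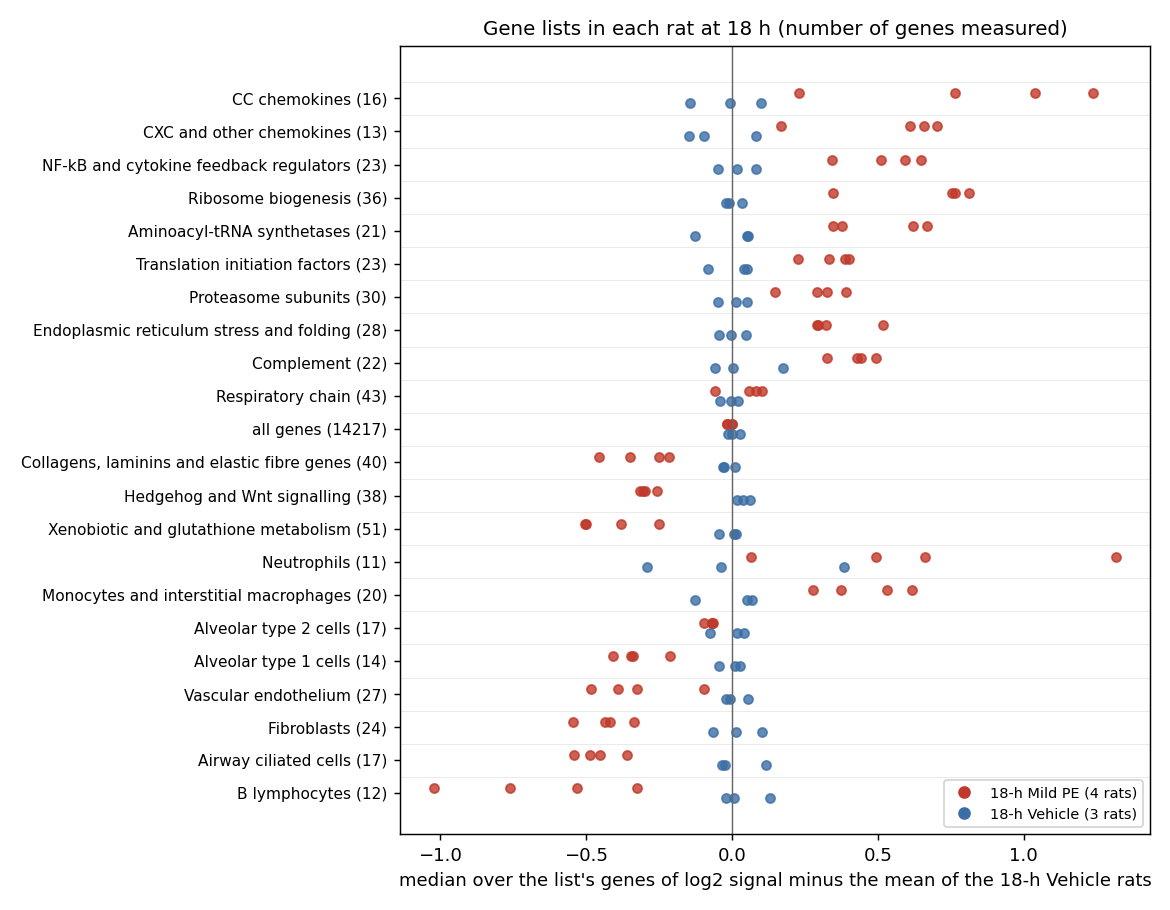
Each row is a gene list with the number of genes measured, and the x axis is the median over its genes of the log2 signal minus the mean of the 18-h Vehicle rats, with red points for the 4 18-h Mild PE rats above blue points for the 3 18-h Vehicle rats. All genes together lie at 0, the ribosome biogenesis list lies between 0.35 and 0.81 in the 18-h Mild PE rats, and the B lymphocyte list lies between -1.02 and -0.33.

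Genes that cells switch on within minutes of a stimulus were still higher at 18 h in some cases. Nr4a3 and Egr2, transcription factors of this kind, rose by 2.07 (SE 0.30, adjusted p = 0.0479) and 1.75 (SE 0.26, adjusted p = 0.0484), and Dusp5, a phosphatase that restrains MAP kinases, by 0.66 (SE 0.10, adjusted p = 0.0491). Klf9, a target of the glucocorticoid receptor, had 9.82, 10.07, 9.73 and 9.78 after Mild PE, against 10.95, 10.82 and 11.12 in 18-h Vehicle (-1.11, SE 0.11, adjusted p = 0.0286), while its other 2 probesets differed by 0.19 and 0.39 and did not pass. In all 3 of 35 immediate early genes rose and 1 fell (median 0.36), against 0.760% and 0.675% of all genes. Bhlhe40, a repressor that also belongs to the clock, rose by 1.96 (SE 0.28, adjusted p = 0.0474), whereas the 18 clock genes had a median of -0.41. Rgs16, a brake on G protein signalling, had 9.75, 9.76, 9.14 and 9.68, against 7.22, 6.66 and 6.92 in 18-h Vehicle (2.64, SE 0.21, adjusted p = 0.0180). C3ar1, a receptor for a complement fragment, and Cfp, properdin, rose by 1.78 (SE 0.25, adjusted p = 0.0476) and 0.96 (SE 0.11, adjusted p = 0.0333), as 2 of 22 complement genes (median 0.41). Nppb, the natriuretic peptide of strained heart muscle, had 6.69, 6.71, 7.01 and 7.04 after Mild PE, against 5.86, 5.83 and 5.95 in 18-h Vehicle (0.98, SE 0.11, adjusted p = 0.0333). Its result stands beside cardiac muscle markers with a summed signal of 15211 to 17942 in the 18-h Mild PE rats and 11643 to 25554 in the 18-h Vehicle rats, and their part in it was not tested.

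Apart from Cyp1a1 the falls were smaller than the rises, and several rested on 1 probeset near the floor. Susd2, a membrane protein, had 9.36, 9.07, 9.04 and 9.54 after Mild PE, against 11.38, 10.70 and 11.21 in 18-h Vehicle (-1.85, SE 0.21, adjusted p = 0.0333). Gpt, the alanine aminotransferase, had 9.94, 9.54, 9.67 and 9.34, against 11.07, 11.28 and 11.46 in 18-h Vehicle (-1.65, SE 0.17, adjusted p = 0.0286). Vipr2, a receptor for the vasodilator peptide VIP, had 5.81, 5.97, 5.85 and 5.97, against 7.26, 8.20 and 8.06 in 18-h Vehicle (-1.94, SE 0.23, adjusted p = 0.0369). The tight cluster of the 4 18-h Mild PE rats stood against a wider range in 18-h Vehicle. Htra3, a secreted serine protease, fell by 1.83 (SE 0.26, adjusted p = 0.0476) on 1 of 3 probesets, the others at -0.24 and -0.59. Chad, chondroadherin, fell by 1.94, Lingo1 by 1.93 (1 of 3 probesets), Them5, a thioesterase, by 1.61, and Ecm2, a matrix protein, by 1.55 (adjusted p = 0.0479, 0.0372, 0.0433 and 0.0306).

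Spata46, and Ndp (norrin, a ligand of Wnt receptors) on the dimmer of its 2 probesets, were at the floor in all 4 18-h Mild PE rats. The level of Spata46 was at least 4.09-fold lower after Mild PE (adjusted p = 0.0148), since 18-h Vehicle had 5.85, 5.90 and 6.35. That of Ndp was at least 3.09-fold lower (adjusted p = 0.0191), with 5.97, 5.52 and 5.39 in 18-h Vehicle, and its brighter probeset fell by 1.62 (adjusted p = 0.0485). Rsbn1, Adra2b, Ephx4 and Rimklb each changed on a probeset that is not their brightest. For these genes the brightest probesets differed by -0.09, 0.65, 0.01 and -1.13 and did not pass. For Rimklb the brightest probeset differed in the same direction as the changed one (-1.85), whereas for Rsbn1, Adra2b and Ephx4 it was near 0 or of the opposite sign.

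**Figure D3:**
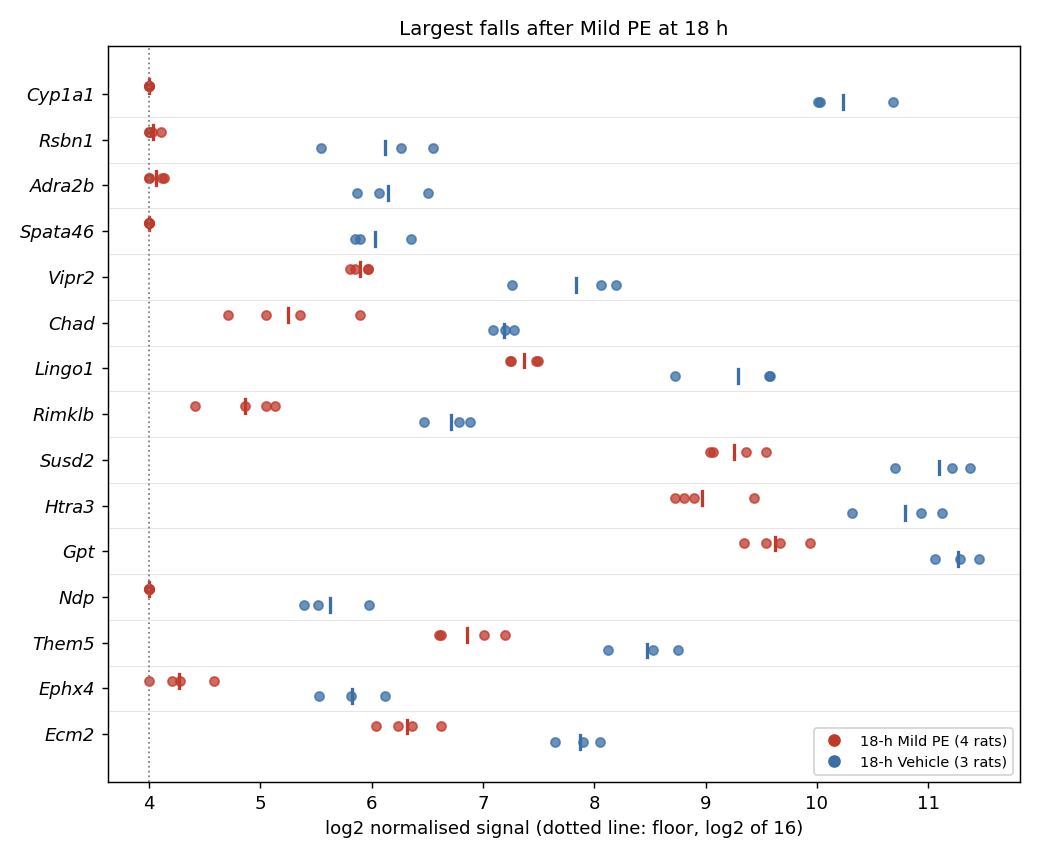
The 15 genes with the largest falls among changed probesets with 1 gene symbol, 1 row per gene. The x axis is the log2 normalised signal. Red points for the 4 18-h Mild PE rats lie above blue points for the 3 18-h Vehicle rats. A short line marks each mean and a dotted line the floor of 4. All red points lie to the left of all blue points in each row, and for Cyp1a1, Spata46 and Ndp the 4 red points sit on the floor.

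Xenobiotic and glutathione enzymes had mostly negative differences. Their median was -0.36 over 51 genes, 19 had an unadjusted p under 0.05 in the downward direction and 1 upward, against 13.6% and 11.1% of all genes. Cyp1a1 and Gstt1, a glutathione transferase, were the members that passed. Gstt1 had 8.78, 8.76, 8.86 and 8.93 after Mild PE, against 9.63, 9.55 and 9.44 in 18-h Vehicle (-0.71, SE 0.07, adjusted p = 0.0282). The 38 Hedgehog and Wnt genes had a median of -0.26 with 10 (26.3%) non-overlapping downward and none upward, against 12.1% and 10.2% of all genes, and none passed. The smallest adjusted p among them was that of Fzd8, a Wnt receptor, at 0.0645 (-1.10). Bambi and Nbl1, secreted or membrane antagonists of BMP and TGF-beta ligands, fell by 1.01 (SE 0.14, adjusted p = 0.0468) and 1.09 (SE 0.16, adjusted p = 0.0484), the 2 that fell among 38 genes of that pathway (median 0.08, none rose). Racgap1 and Ube2c, which act in cell division, fell by 0.75 and 0.90 (adjusted p = 0.0339 and 0.0376), the 2 of 38 cell cycle genes that passed (median -0.05).

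Markers of most resident lung cells and of lymphocytes had negative median differences, those of neutrophils and monocytes positive ones, and few members passed. The 12 B lymphocyte markers were all lower or level (median -0.68), and 2 fell. Bank1, a scaffold of the B cell receptor, had 7.75, 8.01, 7.97 and 8.13 after Mild PE, against 8.97, 8.91 and 8.81 in 18-h Vehicle (-0.93, SE 0.10, adjusted p = 0.0293). Blk, a B cell kinase, fell by 0.72 (SE 0.10, adjusted p = 0.0436). The summed signal of the list was 8193.5 to 11784 in the 18-h Mild PE rats, against 15053 to 16717 in the 18-h Vehicle rats. The 17 ciliated cell markers had a median of -0.46 and the 14 alveolar type 1 markers of -0.27, and no member of either list passed. Ager, the best known marker of type 1 cells, had 13.88, 13.59, 13.78 and 13.60, against 14.09, 14.11 and 14.12 in 18-h Vehicle (-0.39, adjusted p = 0.0868). The 17 type 2 markers had a median of -0.09, and Sftpc differed by -0.09 (adjusted p = 0.587).

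The 27 vascular endothelial markers had a median of -0.37, and 2 fell. Besides Cyp1a1 this was Car4, a carbonic anhydrase of capillaries, with 10.80, 10.66, 10.28 and 10.18 after Mild PE, against 11.70, 11.94 and 11.81 in 18-h Vehicle (-1.33, SE 0.18, adjusted p = 0.0417). The other Car4 probeset differed by 0.13 and did not pass. The summed signal of the endothelial list was 116360 to 149260 in the 18-h Mild PE rats, against 156850 to 163950 in the 18-h Vehicle rats. The part of that shift in the falls of Cyp1a1 and Car4, and in the rise of Sele, was not tested. The 11 neutrophil markers had a median of 0.77 and a summed signal of 34925 to 51637, against 21832 to 28248 in 18-h Vehicle. The 20 markers of monocytes and interstitial macrophages had a median of 0.45 and a summed signal of 53443 to 58913, against 44712 to 48973 in 18-h Vehicle. Neither list had a member that passed or a member at the floor in all 7 rats, and the part of these cells in the rises of chemokines and cytokines was not tested. Neutrophil markers were highest in 18-h Mild PE rat 3 (median 1.32 above the 18-h Vehicle mean, against 0.07 to 0.66 in the other 3 18-h Mild PE rats), the rat in which the chemokines were lowest. In 18-h Vehicle rats 1 to 3 these medians were 0.38, -0.04 and -0.29, so by this measure the groups overlapped.

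The 18-h Mild PE rats were not alike in the size of the response. Among 128 higher probesets with a gene symbol, rat 3 had the lowest level of the 4 in 80, and rats 1, 2 and 4 in 21, 7 and 20. Its median share of the mean rise was 0.867, against 1.02 to 1.08 in the other 3. Among 123 lower probesets the shares were alike, at 0.983 to 1.02. All 7 chemokines and cytokines that rose were lowest in rat 3.

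The Mild PE response at 18 h was then compared with that at 2 h, as the difference of the effects over 14 rats that share no animal. It passed for 308 probesets (0.992%), with a more positive effect at 18 h in 117 and a more negative one in 191, and 106 of the 321 changed probesets were among them. With 1 rat left out the count was between 56 (2-h Mild PE rat 4) and 738 (18-h Mild PE rat 3). Timp1 differed from Vehicle by 2.52 at 18 h and by 0.44 at 2 h (difference 2.07, SE 0.16, adjusted p = 0.00153). Tnc differed from Vehicle by 3.22 at 18 h and by -0.42 at 2 h (difference 3.64, SE 0.34, adjusted p = 0.00271). Its mean was 11.53 at 18 h and 9.24 at 2 h in Mild PE. In Vehicle it was 8.31 at 18 h and 9.66 at 2 h, so part of the difference lay between the Vehicle groups. Steap1 and Aoc1 likewise differed by 2.69 and 2.68 at 18 h, against 0.08 and -0.47 at 2 h. Tnf and Cxcl2 were the reverse, with 1.75 and 1.70 at 18 h, against 4.11 and 3.80 at 2 h (differences -2.37 and -2.10, adjusted p = 0.0209 and 0.0325). For Ccl2 the effects were 4.76 at 18 h and 3.61 at 2 h, and their difference did not pass (adjusted p = 0.312). The ribosome biogenesis list had a median of 0.66 at 18 h and 0.07 at 2 h, and the translation initiation list 0.34 and -0.04.

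**Figure D4:**
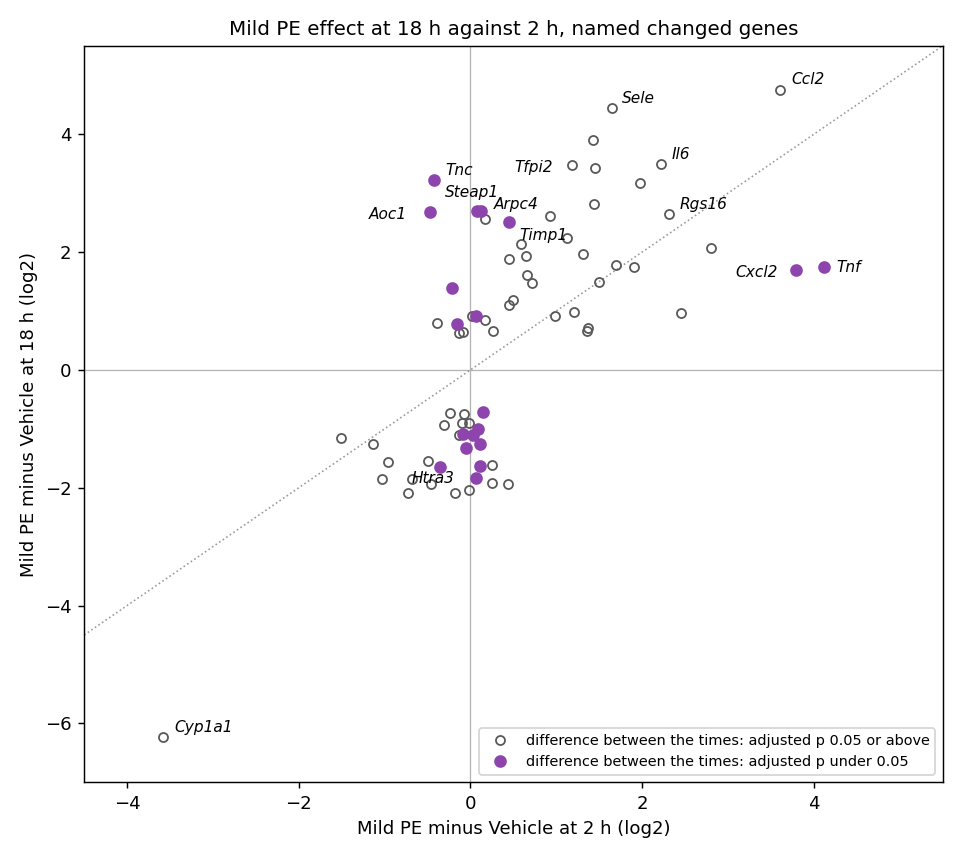
Each point is 1 of the 74 changed genes named by rule, with the log2 difference of Mild PE minus Vehicle at 2 h on the x axis and at 18 h on the y axis, a dotted line of equal effects, and filled points for the 19 genes whose effects differed between the times. Tnc, Aoc1, Steap1, Arpc4 and Timp1 lie near 0 at 2 h and high at 18 h, and Tnf and Cxcl2 lie far to the right, below the dotted line.

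The level of the 2-h Vehicle rats was read beside both 18-h groups, as a description with no test of Vehicle at 18 h against 2 h. Among the 251 changed probesets with a gene symbol, the 2-h Vehicle mean lay nearer to 18-h Mild PE than to 18-h Vehicle in 55, 22 of them higher and 33 lower after Mild PE. These probesets were chosen by the distance between the 18-h groups, so the count supports nothing about the Vehicle rats. Arpc4, a subunit of the actin-branching ARP2/3 complex, was one of them. It had 11.87, 12.08, 11.88 and 11.98 in 18-h Mild PE, against 9.73, 9.24 and 8.78 in 18-h Vehicle (2.70, SE 0.22, adjusted p = 0.0180). The 2-h Vehicle rats had 11.64, 11.63 and 11.43, the level of 18-h Mild PE, while 2-h Severe PE rats 2 and 4 and 18-h Severe PE rat 2 had 9.08, 9.09 and 8.90. Its signal thus took a high or a low level in rats of several groups. For Htra3 the means were 8.96 in 18-h Mild PE and 10.79 in 18-h Vehicle, with 9.63 in 2-h Vehicle. For Adamts1 they were 11.61 and 10.23, with 11.05 in 2-h Vehicle. Timp1, by contrast, had 10.60 to 11.02 in the 2-h Vehicle rats, under the 18-h Vehicle rats.

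Severe PE was set against Mild PE at 18 h to see whether the dose changed the response. No probeset passed in limma (lowest adjusted p 0.0731), 4340 had an unadjusted p under 0.05, 326 passed in a fit on all 22 arrays and 80 passed without 18-h Mild PE rat 4. Timp1 had 13.89, 14.17, 14.11 and 14.16 in 18-h Severe PE, against 13.68, 13.80, 13.65 and 13.83 in 18-h Mild PE (0.34, SE 0.08, adjusted p = 0.154). These ranges did not overlap, but the difference did not pass. The differences of Severe PE minus Mild PE were -0.71 (SE 0.66) for Ccl2, -1.76 (SE 1.03) for Sele and 0.45 (SE 0.23) for Tnc. LOC100911962, a gene of unnamed function, had 4.0, 4.0, 4.13 and 7.37 in 18-h Severe PE, against 7.36, 7.77, 7.91 and 7.24 in 18-h Mild PE and 4.0, 5.19 and 4.0 in 18-h Vehicle, and 3 of the 4 18-h Severe PE rats were at the level of 18-h Vehicle (Severe PE minus Mild PE -2.69, SE 0.79, adjusted p = 0.215). Saa3 was higher by 1.84 in 18-h Severe PE (SE 0.26, adjusted p = 0.0944). The Severe PE and Mild PE effects on Vehicle share the 3 18-h Vehicle rats. Side by side, the list medians in Severe PE and Mild PE were 0.85 and 0.66 for ribosome biogenesis, 0.67 and 0.92 for CC chemokines, and -1.01 and -0.68 for B lymphocytes.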

How the data were processed

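Each of the 22 rats gave right lung RNA for 1 Affymetrix array. For 31099 probesets the authors deposited linear signal intensities, with a trimmed mean per array of 500.15 to 500.18. The methods describe GC-RMA log2 values, which these are not, and the summary method is not given in the sources used here. Here 57 array controls were left out, signals under 16 were set to 16, log2 was taken and all 22 arrays were quantile normalised. Groups were taken from the sample titles. Tests used limma 3.58.1 (lmFit and eBayes, no trend) in R 4.3.3, two-sided: the 7 arrays for 18-h Mild PE against 18-h Vehicle, 14 for the contrast of times and 8 for the doses. The array annotation gave 1 symbol to 20826 probesets, several to 436 and none to 9780, and a gene is represented by its probeset of highest mean over all arrays. Further probesets of Bcat1, Blk, Cfp, Dpt, Egr2, Eif1a, Plaur, Racgap1, Steap2, Susd2 and Tnf did not pass. Their differences had the sign of the changed probeset. Nr4a3 had a further probeset that passed (1.49, adjusted p = 0.0420) and another that did not (0.68). No level is compared between probesets. The number of arrays limits the precision.

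The genes named are the 15 largest rises and the 15 largest falls among changed probesets with 1 symbol, and from each of 61 gene lists (42 pathways, 19 cell types) up to 5 changed members and up to 2 further members with the smallest p. Genes of the promoter search and of the paragraph on Vehicle rats were chosen after their values were seen. The comparison, its gene lists and its tests were chosen with earlier results of these data known. The fits were also run on simulated data with independent noise in each array, which cannot show whether the calls hold here. Replicate numbers did not pair the rats (correlations of same-numbered deviations -0.188, 0.273 and -0.068). Sequences are from RefSeq. Probe summaries that differ from the study's can move single calls.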

Additional observations from a re-analysis of the deposited data

Results flagged for a closer look

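In 14 of the 195 named genes 1 of the 4 18-h Mild PE rats stood apart, in that its gap to the nearest rat took a share of the group's range above Dixon's 95% critical value. Chance alone gives this in about 1 in 20 groups. In 11 genes this was rat 3, and it was low. The share of the range was 0.917 for Ccl9 (10.12, against 11.60 to 11.73 in the other 3 rats), 0.838 for Tnc, 0.892 for Ccl24, 0.862 for Rgs16, 0.832 for Bcat1, 0.893 for the Toll-like receptor Tlr2, 0.852 for Cyp51 of cholesterol synthesis, 0.939 for the chaperonin subunit Cct6a, 0.909 for Myc, 0.858 for Dusp5 and 0.870 for Cd14. Rat 4 was low for Sparc, at 0.851. Rat 2 was high for Cd80, at 0.877, and for Stab2, at 1, where the other 3 rats were at the floor.

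The effect of Mild PE differed between 18 h and 2 h, by the test of the difference itself, for 31 named genes, with an adjusted p between 0.00153 and 0.0476. It was more positive at 18 h by 3.64 for Tnc, 3.15 for Aoc1, 2.61 for Steap1, 2.57 for Arpc4, 2.07 for Timp1, 1.69 for Inhba, 1.60 for Adamts1, 1.05 for Il1r1, 0.93 for Wdr12, 0.85 for Pdia6, 0.85 for Nhp2, 0.69 for C1s and 0.61 for Ptges3. It was more negative for the early cytokines Tnf (-2.37), Cxcl2 (-2.10) and Il1b (-2.09). For Il1b part of this lay in Vehicle, with a mean of 10.33 at 18 h and 9.19 at 2 h. Mild PE had 11.43 and 12.38. Further negative differences were -1.90 for Htra3, -1.74 for Ndp, -1.59 for the red cell membrane gene Slc4a1, -1.41 for Gstm7, -1.37 for Col13a1, -1.29 for Gpt, -1.28 for Car4, -1.13 for Sod3, -1.09 for Bambi, -0.998 for Nbl1, -0.93 for Ace, -0.89 for Reck, -0.86 for Gstt1, -0.73 for Bcl2l11 and -0.57 for Acvrl1.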

How the results depend on the processing

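The count of 321 changed probesets was 161 with median centring, 129 with a floor of 64, 1164 with the less bright probesets left out (16326 tested), 51 with the methods' t-test (2439 at an unadjusted p under 0.05 with 1.5-fold), 1589 in the fit on all 22 arrays, 3 without the 2 arrays of low 5′ signal, and 4 to 491 with 1 rat left out. With the replicate number as a block it was 0 of 321, that of the times 37 and that of the doses 0. The replicate numbers did not pair the rats. With 1 rat left out the count for the times (308) was 56 to 738 and that for the doses (0) was 0 to 80. In the fit on all 22 arrays the count for the doses was 326. The settings with values near the first count were quantile normalisation over the 7 arrays, no further normalisation and a variance trend (330, 287 and 340). Shared with the 321 were 153 probesets under median centring, 112 at the floor of 64 and 264 of the brighter probesets. Of the 74 named changed genes 50, 28 and 10 passed under median centring, the floor of 64 and the methods' t-test, and 65 with a gene's probesets averaged. No named changed gene reversed. At the floor of 64, however, the changed probesets of Ndp and Ephx4 went to a difference of 0. Those of Spata46 and Adra2b shrank to -0.12 and -0.17. Cd80, not changed, went to 0 at the floor of 64, since all of its signals lie under it. The cause of these shifts was not tested. Genes near the floor have no measured change below it.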

Other observations

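Several further gene groups had few or no members that passed. The 28 interferon-induced genes had a median difference of 0.32, with 24 positive, and the 25 cytosolic chaperones had 0.32, with 19 positive. The 20 cholesterol synthesis genes had a median of 0.31 at 18 h in Mild PE. The medians were 0.12 for 30 glycolysis and hypoxia genes, 0.11 for 23 p53 targets, 0.16 for 27 prostanoid and leukotriene genes and 0.09 for 14 genes of the EGF family. They were -0.15 for 37 angiogenic ligands and receptors and -0.22 for 15 aquaporins and ion transporters. Nrg1 of the EGF family had a changed probeset (1.39) that is not counted here. Among 12 genes of MHC class II presentation RT1-DMa rose (0.92, adjusted p = 0.0481), with a list median of 0.34. The 30 vasoactive genes had a median of -0.23, and Nppb alone passed. The 15 glucocorticoid targets had a median of -0.20, and Klf9 alone passed on its brightest probeset. Fkbp5, also a target of the glucocorticoid receptor, had a changed probeset, higher after Mild PE, that is not counted here.

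Markers of other cells were also read. The medians were -0.39 for 16 T lymphocyte markers, -0.10 for 18 natural killer cell markers, -0.36 for 15 mast cell markers, -0.63 for 11 red cell markers and -0.22 for 10 platelet markers, and no member passed. They were -0.11 for 9 lymphatic endothelial, -0.15 for 19 smooth muscle, -0.41 for 13 mesothelial and 0.21 for 19 cardiac muscle markers, again with no member that passed on its brightest probeset. Tnnt2, a troponin of heart muscle, had a changed probeset near the floor (-0.96) that is not counted here. The 13 club cell markers had a median of 0. The 13 alveolar macrophage markers had a median of -0.18 with 6 positive, and Chi3l1 was higher and Car4 lower. Their summed signal was 36398 to 41016 in the 18-h Mild PE rats, against 31949 to 33802 in the 18-h Vehicle rats. That sum is linear, so bright members weigh most in it. Chi3l1 had log2 means of 13.71 in 18-h Mild PE and 12.11 in 18-h Vehicle, and its part in the sum was not tested. Markers at the floor in all 7 rats were Klrc1 of natural killer cells, Hbz of red cells, and Scgb1c1 and Sult1d1 of club cells.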
